A study of Mus musculus with 6 samples.

Results

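The comparison described here set the stem-cell-enriched mammary population of mice heterozygous for a ΔNp63 knockout against the same population of wild-type mice. It rests on 2 of the 6 arrays of the series, 1 array for each genotype. The cells were P4 cells, sorted as CD24+CD29hi from the mammary glands of virgin C57/B6 mice. The labels write the allele as DNP63 KO heterozygous, give neither the exons it removes nor the number of mice behind each array. The other 4 arrays held P5 cells (CD24+CD29lo) and unsorted mammary epithelial cells (MEC) of the same genotypes, and appear below only where they bear on P4. Each sample carried the dye Cy5 and was hybridised against a reference RNA mixed from 11 mouse cell lines, which carried Cy3. With 1 array a side there is no replicate, so no difference between the genotypes could be tested and no p-value is given. In a sorted population, fewer cells of a type and less RNA per cell cannot be told apart.

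Trp63 encodes the transcription factor p63, a relative of p53 and p73. Its ΔN isoforms start from an internal promoter, lack the N-terminal transactivation domain, and are the main p63 forms of basal cells in stratified and glandular epithelia. In the mammary gland p63 marks basal and myoepithelial cells, the layer that holds the CD29hi fraction, and p63 is known to act on genes for keratins, hemidesmosomes, desmosomes and signalling receptors. Fzd7 encodes a Frizzled receptor, a surface protein that receives Wnt ligands, and Wnt signalling is known to support mammary stem cells.

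Each difference is het minus WT on the log2 scale and is given in 2 forms. Value A is the scanner software's own log ratio of Cy5 over Cy3. Value B was computed from the mean signal and the local background of each spot, after the few very bright local backgrounds had been replaced by the array's median. A gene was counted when the difference was at least 2-fold, which is 1 on the log2 scale. Counts cover 21159 genes whose probe was well above background in Cy5 on both P4 arrays. The only spread available is technical. For 208 probes printed 10 times on each array and measured on both, the standard deviation of a single difference was 0.23 in A and 0.12 in B. It compares copies within the same 2 arrays, so it leaves out any shift shared by the copies on an array.

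Trp63, the targeted gene, was lower in the heterozygous P4 cells by less than 2-fold. Its brightest probe (mm7, chr16:25553466-25553525) gave a processed Cy5 signal of 28066 on the WT P4 array and 20626 on the het P4 array. The difference was -0.67 in A, with a software error of 0.87, and -0.49 in B. The error the software attached to this ratio was larger than the difference. The spread of repeated probes was smaller than the difference, but it does not measure how far 2 arrays differ. The same probe read 8107 in WT MEC and 3792 in het MEC, a difference of -0.99 in A and -1.04 in B. In P5 cells, which hold little Trp63 RNA, it read 975 and 949, and A was 0.35. On this probe the 2 P4 signals were the highest of the 6 arrays and the 2 P5 signals the lowest. No file used here says whether any of the 3 Trp63 probes lies within the ΔN-specific part of the gene or in the deleted part.

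The other Trp63 probes were dim. The probe spanning chr16:25526842-25527619, a stretch of 778 bases for a probe of 60, read 157 in WT P4 and 88.4 in het P4, with A at -0.67 and B at -0.58. It was well above background in Cy5 on 3 of the 6 arrays only. Its Cy3 signals in P4 were 6.99 and 6.28, not above background on both arrays, and the software error of A was 1.08. Its ratio is therefore poorly held. The probe at chr16:25529172-25529231 went the other way, from 132 to 267, with A at 0.35 and B at 0.13. That probe was above background in both channels on both P4 arrays. The lower Trp63 reading in P4 therefore rests on the bright probe, and the 2 dim ones add little.

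Fzd7 was lower in het P4 on its bright probe (mm7, chr1:59737506-59737565). Its Cy5 signal was 13883 in WT P4 and 8080 in het P4, with A at -0.73 and B at -0.80. It read 3732 in WT MEC and 1367 in het MEC, with A at -1.31, and 2347 and 1741 in P5, with A at -0.17 and B at 0.00. Its second probe was dim in all 6 arrays, read 275 and 298 in P4, and gave -0.17 in both A and B. Neither Trp63 nor Fzd7 reached 2-fold in P4, whereas Fzd7 passed it in MEC in both forms. Whether the differences of P4 and MEC differ from each other was not tested.

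**Figure D1:**
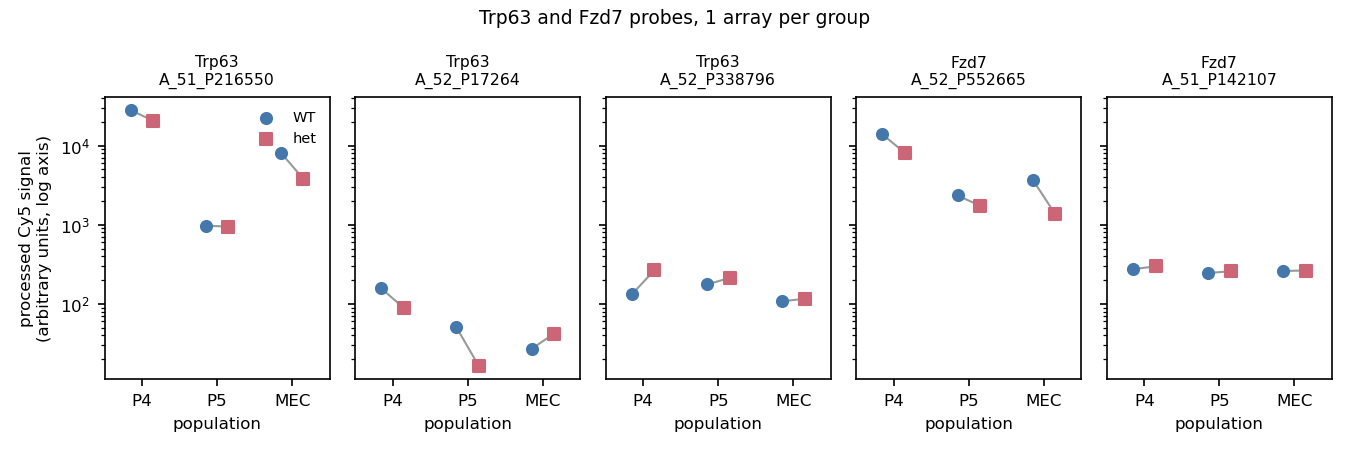
Processed Cy5 signal (arbitrary units, log axis) of the 3 Trp63 and 2 Fzd7 probes on the 6 arrays, with WT as circles and het as squares, 1 array per point. The bright Trp63 probe falls between 28066 and 20626 in P4 and reads 975 and 949 in P5, and the bright Fzd7 probe lies lower in het than in WT in all 3 populations.

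The way background was corrected changed these values for some genes. On the WT P4 array 13 spots had a Cy5 local background above 3 times the array's median of 35.5, the brightest at 4502, and the Cy3 background reached 30168. On the het P4 array 3 spots passed that limit in Cy5. With those backgrounds left as given, normexp correction turned the Trp63 difference to 0.88, the opposite direction, and moved Fzd7 to -0.17. Plain subtraction of the same backgrounds as given left Trp63 at -0.55 and Fzd7 at -0.84. The bright Trp63 probe itself had a Cy5 background of 34 on both P4 arrays. The values of 0.88 and -0.17 thus belong to normexp with the bright backgrounds kept. With each array centred on its median in place of loess, Trp63 was at -0.95 and Fzd7 at -1.20. The WT P4 array also had the smallest share of spots well above background in Cy5, at 72.1%. That share was 81.1% on the het P4 array and 80.4% to 87.7% on the other 4. WT P4 lay at position 1 and het P4 at position 3 of the same slide, so genotype and slide position cannot be told apart.

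Across all genes, more were higher than lower in the heterozygous cells. In A, 1023 genes (4.83%) were at least 2-fold higher and 484 (2.29%) at least 2-fold lower. In B, 910 (4.30%) were higher and 111 (0.525%) lower. Both forms together gave 774 higher (3.66%) and 106 lower (0.501%). The balance depended on the processing: 67.9% of the genes 2-fold apart were higher in A and 89.1% in B. It was 98.8% with normexp and backgrounds as given (1502 higher, 18 lower) and 38.5% with median centring (327 higher, 523 lower). Plain subtraction gave 76.1% (1128 higher, 355 lower), with the bright backgrounds kept or replaced. The median over all genes was 0.04 in A, 0.09 in B and -0.13 under median centring. Of the 774 higher genes, 699 were also 2-fold higher in the Cy5 channel alone, as were 100 of the 106 lower genes in their direction. The reference channel, which held the same RNA on both arrays, was 2-fold apart for 4 of the higher and 6 of the lower genes.

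**Figure D2:**
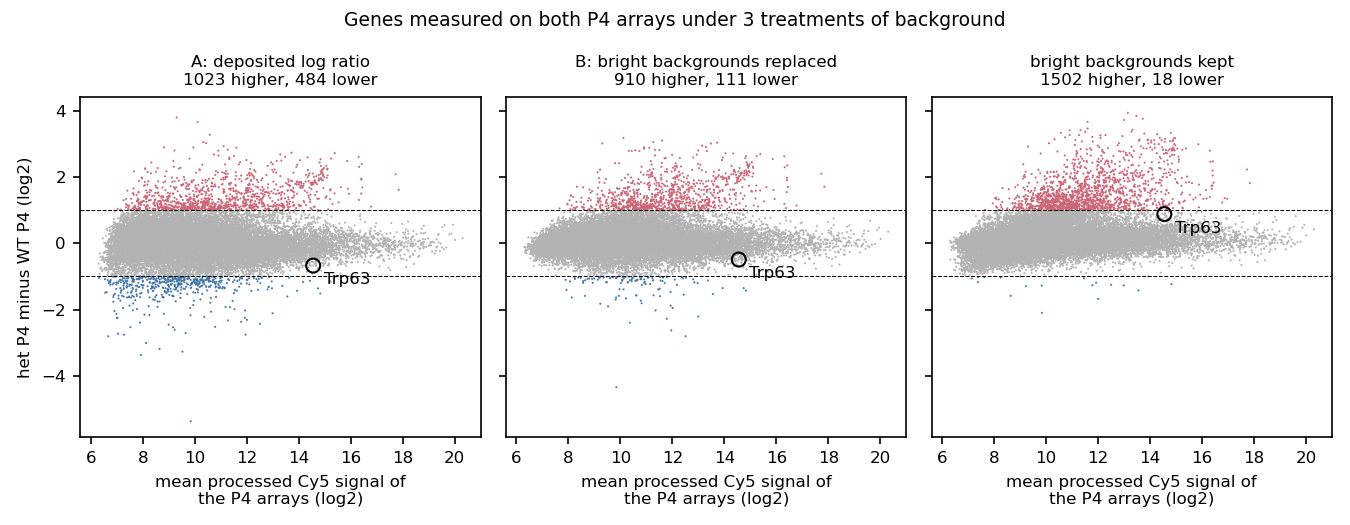
Difference het P4 minus WT P4 (log2) against mean processed Cy5 signal (log2) for the 21159 genes. The panels show A, B, and normexp correction with the bright backgrounds left as given. Each point is 1 gene, red at 2-fold higher and blue at 2-fold lower. The number of lower genes goes from 484 to 111 to 18 across the panels, and Trp63, circled, moves from -0.67 to -0.49 to 0.88.

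The genes furthest below WT belonged to several functions. Aoc1, a diamine oxidase that breaks down histamine and putrescine, read 4730 in WT P4 and 178 in het P4, a difference of -5.38 in A and -4.35 in B. Ido1, which starts the breakdown of tryptophan, read 8013 and 1971 (A -2.76, B -2.63). Gpx3, an extracellular glutathione peroxidase, read 2283 and 619 (A -1.70, B -1.66). All 3 were far brighter in the luminal P5 cells: WT and het P5 read 162454 and 2254 for Aoc1, 281707 and 73454 for Ido1, and 135416 and 13541 for Gpx3. Their P5 ratios were at -2.63, -0.13 and -0.05 in A, and at -4.40, -0.37 and -0.28 in B. In A these were much closer to 0 than the change in Cy5, because the Cy3 reading moved with Cy5. For Gpx3 the Cy3 signal, which stands for the same reference RNA on every array, was 5401 on the WT P5 array and 558 on the het P5 array, and for Ido1 it was 1128 and 321. In P4 the Cy3 signals of Gpx3 were 223 and 196. The P5 ratios of these bright genes therefore carry a reference that was not constant, for a reason that was not tested. In MEC, Aoc1 was higher in het, at 2737 and 23066 (A 1.40, B 2.31), as was Ido1, at 4576 and 57376 (A 1.998, B 2.49). The Cy3 signal was not constant there either, at 81.4 and 259 for Aoc1 and 270 and 849 for Ido1.

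Other low genes were brighter in WT P4 than in WT P5. Nrg1, a ligand of the ErbB receptors made by basal mammary cells and a known p63 target there, read 7449 in WT P4 and 2046 in het P4 (A -2.03, B -1.88), against 898 and 517 in P5 (A -0.50). Nrg1 was the best supported low gene within the array: all 5 of its probes were measured and lower, at -2.03, -1.42, -1.92, -0.77 and -2.46 in A. In MEC its main probe gave -0.94 in A and -0.95 in B. Serpinb2, a serine protease inhibitor of the plasminogen system, read 1605 and 508 (A -1.95, B -1.70), with a second probe at -2.24. It was lower in het P5 by 0.82 and in het MEC by 2.30, so its sign was negative in all 3 populations. Cpeb2, a regulator of translation, read 15284 and 2207 in P4 (A -2.43, B -2.81) and 6228 and 3540 in P5, with A at -0.21 in P5 and 0.55 in MEC. Its other probes were at -1.40 and -0.21 in A in P4.

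Lama1, a laminin chain of basement membranes, read 1414 and 384 (A -3.27, B -1.90), but its Cy3 signal was not above background on both arrays, so the ratio is poorly held. Cxcl3, a chemokine that attracts neutrophils, read 632 and 124 (A -3.01, B -1.64) and was lower in het P5 and het MEC too, at -1.65 and -1.97. The remaining low genes were Ccl21c (A -2.22), Pdzd2 (-1.93), Cpa6 (-2.61) and Bex2 (-2.52). Other probes of Pdzd2 were at -0.70, 0.86 and -0.66 in A. For Bex2 the Cy3 reference signal itself went from 78.5 to 244, and Cy5 alone gave -1.04. In ranking these 12 genes 3 unnamed transcripts were passed over.

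The genes furthest above WT were of unlike functions. Ppara, a nuclear receptor of fatty acid breakdown, read 152 in WT P4 and 2628 in het P4 (A 3.81, B 3.02). Ppp4r1l-ps, a pseudogene, read 306 and 4008 (A 3.66, B 3.19). Nlrp6, a cytoplasmic immune sensor, read 563 and 4117 (A 3.28, B 2.81). All 3 were dim on the WT array. Cldn15, a claudin of tight junctions, read 4100 and 31807 (A 2.62, B 3.02), and P2rx2, an ATP-gated ion channel, read 3711 and 27045 (A 2.68, B 2.91). Arhgap27, Fam219aos, BE573237, Nlrp2, Gpm6a, Cyth4 and Sox19 completed the 12, at 2.55 to 3.03 in A, and 9 unnamed transcripts were passed over. Where these genes had other probes measured on both arrays, none of those was 2-fold higher. In A they were at -0.53, 0.46, 0.39 and -0.38 for Ppp4r1l-ps, 0.11 for Nlrp6 and 0.67 for Arhgap27. For Gpm6a the other probe was at -0.31, and for Cyth4 they were at 0.31 and 0.05. Of all 774 higher genes, 30.1% carried only a clone or locus name, against 17 of the 106 lower genes and 21.8% of all genes counted.

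Some genes were measured on 1 of the P4 arrays only: 2441 on the het array and 99 on the WT array. For these the difference has only a bound, taken from normalised Cy5 signals. It was taken against the higher of the gene's own dim reading on the other array and the dimmest signal well above background there. With unnamed transcripts left out, the bound reached 2-fold for 6 genes on the het side and 5 on the WT side. Glycam1, a secreted mucin of the milk and of lymph node vessels, was the clearest, at least 21.4-fold higher in WT P4, with 4192 against 28.4. In MEC it read 19873 in WT and 32.7 in het, and it was at 37.0 and 20.9 in P5. Cxcl13, a chemokine for B cells, was at least 3.12-fold higher in WT P4. On the het side the highest bounds were D6Ertd527e (at least 6.26-fold), Nphs1, the slit-diaphragm protein nephrin (4.49-fold), and Csta1, a cysteine protease inhibitor (3.40-fold).

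Probes of the same gene seldom moved together among the higher genes. Of the 774, 257 had another probe measured on both arrays, and the next brightest one was also 2-fold higher for 8 genes (3.11%), against 1.14% of all 8946 such probes. It had the same sign for 139 of the 257. Of the 106 lower genes, 41 had another measured probe, which was 2-fold lower for 6 (14.6%), against 0.682% of all such probes, and had the same sign for 29. The other probes were dimmer, with a median WT P4 signal of 556 against 2305 for the probes used for higher genes. Among those reaching a signal of 500 on either array, the counts were 8 of 166 for higher genes and 5 of 27 for lower genes.

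Trp53, which encodes p53, shows the disagreement. The probe used read 14786 in WT P4 and 84375 in het P4, at 2.26 in A, while its next probe read 1448 and 1338, at -0.27. For Lgr4, a receptor for R-spondins that strengthens Wnt signalling, 3 measured probes gave 1.86, 0.07 and -0.87. Itgb3, an integrin, gave 1.45 and -0.38 on probes that read 14630 and 6955 in WT P4, and Ccl19 gave 1.35 and -2.24. The direction of these genes in P4 therefore depends on the probe chosen. The 8 genes with a second 2-fold higher probe were AI324046, Crkl, Fbxo2, Hmga2, Punc, Upk1a, Vamp2 and Zfp345. Hmga2, a chromatin protein of proliferating and stem cells, read 7963 and 24517 on one probe and 3589 and 24485 on the other, at 1.57 and 2.67 in A. The 6 genes with a second 2-fold lower probe were Nrg1, Serpinb2, Arhgap5, Nfatc1, St8sia6 and Xist.

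The higher genes also shared a base composition. Their probes held a mean of 16.2 cytosines and 11.5 guanines in 60 bases, against 12.9 of each over all genes counted. Probes of lower genes held 11.5 cytosines and 13.0 guanines. The share of genes 2-fold higher was 1.54% where the probe had 0 to 7 cytosines, 1.57% at 8 to 11, 2.48% at 12 to 15, 6.53% at 16 to 19 and 18.4% at 20 or more. Over the same steps the median difference went from -0.13 to 0.51 in A and from -0.02 to 0.54 in B, and the share 2-fold lower from 0.770% to 0.103%. The median of the Cy3 reference channel stayed between -0.02 and 0.04 over these steps, and that of Cy5 alone went from -0.15 to 0.60. In P5 the share 2-fold higher was 1.51% at the first step and 11.0% at the last, and in MEC 0.806% and 3.79%. The number of cytosines in the probe thus moved with the difference in the sample channel on every pair of arrays, most steeply in P4, and its part in the results was not tested.

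Short repeated words stood out within these probes. Among 33904 words of 8 bases found in at least 20 of the 30117 probes measured on both arrays, the word CCCTAACC was in 20 probes, of which 18 (90%) were 2-fold higher in het P4, against 2.91% of all probes. The overlapping word CCTAACCC was in 29 probes, 24 of them (82.8%) higher. The word ACCACCAC was in 22 probes with 14 higher, CCTCCTCC in 34 with 19 higher, and CACAGCAC in 33 with 16 higher. None of these probes was 2-fold lower in P4. In MEC 0 of the 20 probes with CCCTAACC were 2-fold higher, and in P5 14 of 20 were. Both MEC arrays lie on another slide than the P4 and P5 arrays. The words are read on the probe strand only and were picked after their values were seen, so the shares are descriptions. The stretch of 30 bases richest in cytosine is shown for the probes of the 5 highest and 5 lowest named genes, and for Trp63 and Fzd7, with cytosines in capitals, to let the composition be seen beside the differences. P2rx2 and Trp53 are added for the words they hold. The genes at the extremes overlapped in composition: the 12 highest held 11 to 36 cytosines with a median of 14.5, and the 12 lowest 8 to 18 with a median of 12.5. The word CACAGCAC lies in the stretches of Ppp4r1l-ps and Nlrp6, ACCACCAC in that of P2rx2 and CCTCCTCC in that of Trp53. The Ppara probe holds CACAGCAC too, but the stretch shown for it starts within the word. The higher genes are Ppp4r1l-ps (mm7, chr2:173327949-173328008, minus strand), Ppara (chr15:85883890-85883949, plus), Nlrp6 (chr7:137345388-137345447, plus), Arhgap27 (chr11:103441144-103441203, minus), Fam219aos (chr4:41657239-41657298, plus), P2rx2 (chr5:109507407-109507466, minus) and Trp53 (chr11:69662031-69662089, plus). The lower genes are Aoc1 (chr6:48869166-48869225, plus), Ido1 (chr8:23370259-23370318, minus), Cpeb2 (chr5:42600836-42601037, plus), Ccl21c (an unplaced contig, minus), Pdzd2 (chr15:12652785-12652844, minus), Trp63 (plus) and Fzd7 (plus), the last 2 at the positions given above.
Ppp4r1l-ps: aCatagCCggtatttttCCaCagCaCagCC
Ppara: CagCaCtCtaCgttgCgtttataattCgCC
Nlrp6: gCtggCaCagCaCagtgaatCtCtCCCaaC
Arhgap27: gCagCaCagCCtgtaggtagaCCagagtaa
Fam219aos: agtaCagCtaCaCaCaCaCCaCttttCCCg
P2rx2: aaCggCaCCaCCaCCaCtCgaaCtCtCatC
Trp53: gCattCaggCCCtCatCCtCCtCCttCCCa
Aoc1: ttgtCtCaCCtCaaCgatgggCaggagtaa
Ido1: tCtatCagggCaCagaaaaCaCCttCatCC
Cpeb2: CCtgttCaaatCCgtCCttggaatttaagt
Ccl21c: CaCggtCCaaCtCaCaggCaaagagggagC
Pdzd2: gCCagatttCCaCgtCatttgCatgaaCCC
Trp63: aCttttttaCagCttCagttgCttgtCttC
Fzd7: aaggtgaaCttCaaagtgattCtggagttC

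When each array's log ratios were centred on probes with as many cytosines, 555 of the 774 higher genes and 105 of the 106 lower genes were still 2-fold apart in the same direction. All 12 highest and all 12 lowest named genes stayed past 2-fold. The centring shifts all probes with as many cytosines by 1 amount, which is small beside these differences. For BE573237, with 36 cytosines, A went from 2.73 to 1.96. It therefore could not bring these genes under 2-fold and is no check on them. On this scale Trp53 was at 1.49, Trp63 at -0.58 and Fzd7 at -0.55. Probes of the lower genes held a mean of 11.5 cytosines. The median A was -0.11 at 8 to 11 cytosines and 0.03 at 12 to 15, so the centring could hardly change their number. The higher genes became fewer.

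**Figure D3:**
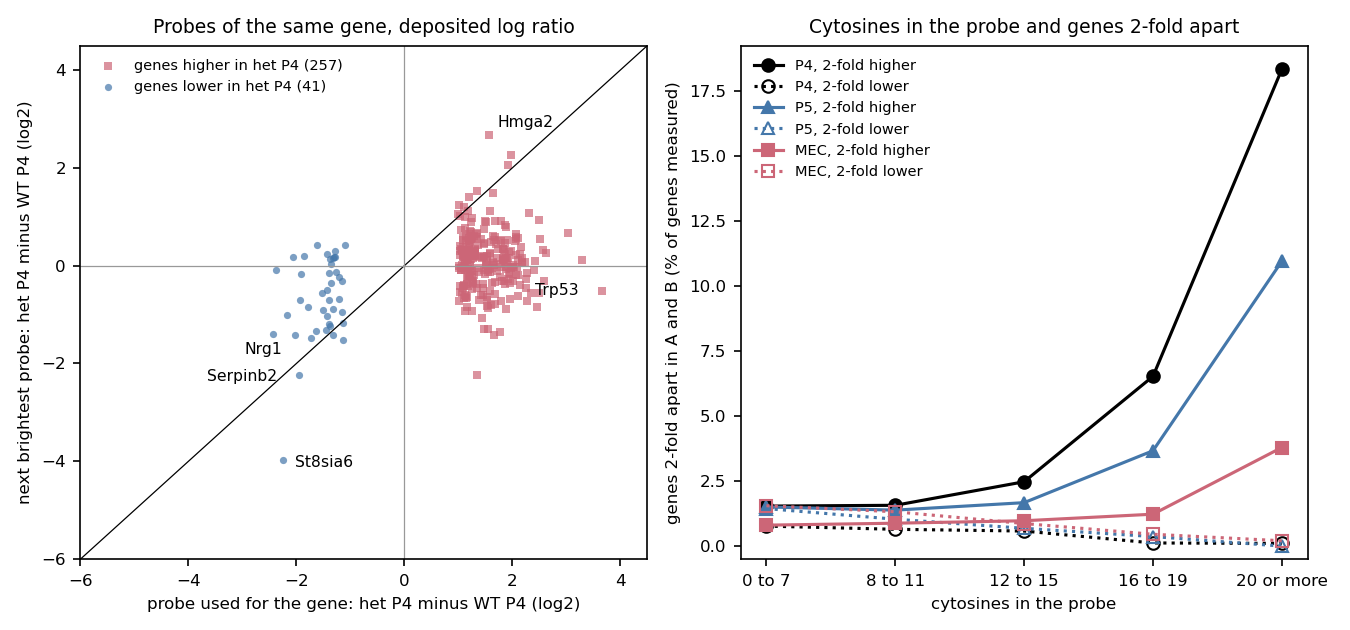
The left panel plots, for 257 higher and 41 lower genes, the difference het P4 minus WT P4 (log2, A) on the probe used and on the next brightest probe of the same gene; the line marks equality. Right, the percentage of genes 2-fold higher (filled) or lower (open) in A and B by the number of cytosines in the probe, for the 3 populations. The higher genes scatter around 0 on the second probe, and the share of higher genes in P4 climbs from 1.54% to 18.4%.

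The other arrays give the same genes in other cells, on other samples with the same reference. Of the 774 genes higher in P4, 771 were measured in P5, where 374 (48.5%) were also 2-fold higher and 0 were 2-fold lower. Over all genes measured in P5, 2.34% were 2-fold higher and 0.757% lower in both forms. In MEC, 21 of 770 (2.73%) were 2-fold higher and 2 were 2-fold lower, against 1.09% and 0.960% of all genes measured there. Of the 106 lower genes, 13 of 102 (12.7%) were 2-fold lower in P5 and 9 of 106 (8.49%) in MEC, and 6 were 2-fold higher in MEC. Across 20954 genes the P4 and P5 differences correlated at 0.562 in A, and across 21016 genes those of P4 and MEC at 0.291. The reference channel itself was 2-fold lower on the het array for 9 genes of the P4 pair, 81 of the P5 pair and 133 of the MEC pair, and 2-fold higher for 212, 33 and 310. Genes are not replicates, and the P4 and P5 arrays share a slide on which both het samples lie after both WT samples. Both MEC arrays lie on another slide, with median Cy3 signals of 112 and 110 against 234 to 267 on the P4 and P5 arrays. When MEC is set beside P4 and P5, population and slide therefore cannot be told apart.

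**Figure D4:**
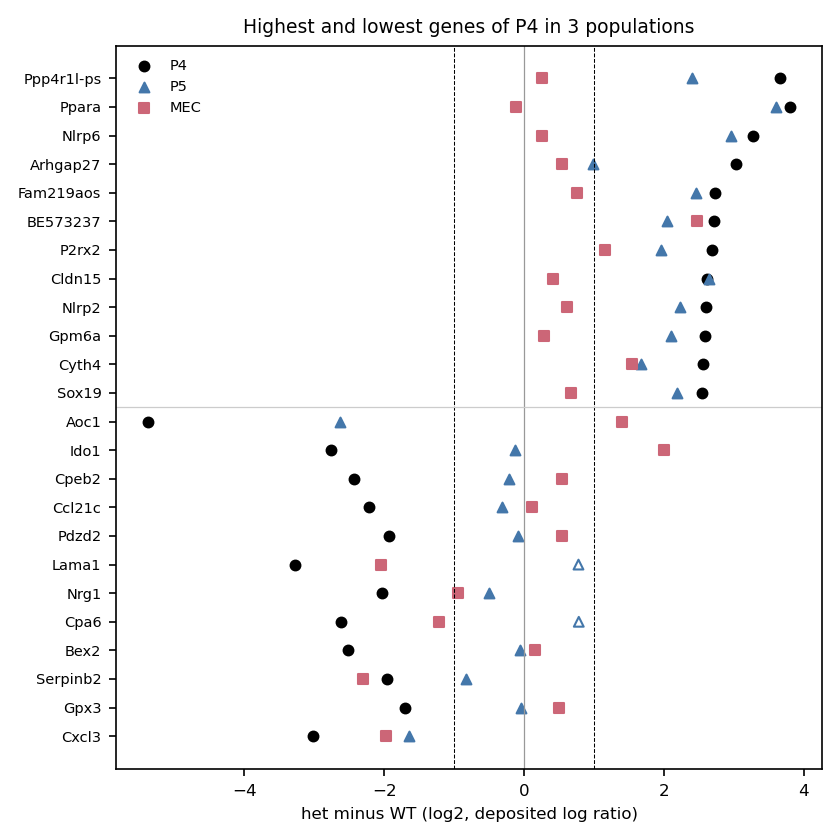
Difference het minus WT (log2, A) of the 12 highest and 12 lowest named genes of P4 in P4 (circles), P5 (triangles) and MEC (squares), 1 array a side; open symbols mark a gene not well above background on both arrays. The 12 highest genes are at 0.99 to 3.61 in P5, while the lowest ones spread to both sides of 0 in MEC, from -2.30 to 1.998.

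Gene lists were read by their counts and medians beside those of all genes, whose median was 0.04 in A and 0.09 in B. Of all genes 53.4% were above 0 and 46.6% below 0 in A. In both forms 3.66% of all genes were 2-fold higher and 0.501% 2-fold lower. The sort left its mark on both P4 arrays: the 20 basal keratin and contractile genes had a summed Cy5 signal of 4936651 in WT P4 and 4945157 in het P4, against 137126 in WT P5. Krt14 was at 0.44 in A and 0.51 in B, Krt5 at 0.66 and 0.75, and Acta2, smooth muscle actin, at 0.10 and 0.13. The list's median was -0.12 in A and -0.05 in B, with 9 of 20 members above 0. Itga8, an integrin of contractile cells, was its only member 2-fold lower, reading 7079 and 4202 (A -1.15, B -1.06). The 18 general luminal genes summed to 751004 in WT P4 and 666423 in het P4, against 5698959 in WT P5, and none was 2-fold apart in both forms. Of these luminal genes 13 were below 0 in A, with a median of -0.26 in A and -0.12 in B.

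Adhesion genes, many of them known p63 targets, leaned lower by small amounts. The lean was not particular to them. Of the general luminal genes 13 of 18, and of the stem cell surface genes 11 of 15, were also below 0 in A. Of 18 hemidesmosome and basement membrane genes 14 were below 0 in A, against 46.6% of all genes, with a median of -0.34 in A and -0.17 in B. The collagen IV chains Col4a1 and Col4a2 were at -0.67 and -0.65 in A, Lamb3 of laminin-332 at -0.55, and Itga6, the integrin chain of hemidesmosomes, at -0.44. Lama1 alone was 2-fold lower in both forms. Of 13 desmosome and epidermal junction genes 9 were below 0 in A, with a median of -0.38 in A and -0.09 in B. Jup, plakoglobin, read 1568 and 766 (A -1.09, B -1.02) and was the only one 2-fold lower. Perp, a desmosome protein and p63 target, was at -0.39 and -0.26. With normexp and bright backgrounds as given, the medians turned to 0.17 for the hemidesmosome list and 0.20 for the desmosome list. With plain subtraction of backgrounds as given they were -0.24 and -0.17.

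The 19 measured p63-linked regulators had a median of -0.24 in A and -0.08 in B. The 2 higher members were Trp53, whose other probe did not follow, and Trp73, which encodes p73 and read 3030 and 9724 (A 1.51, B 1.70), with a dim second probe at 0.01. Hes1, a Notch-responsive repressor, read 690 and 408 and was 2-fold lower in A alone (-1.11, B -0.78). Fgfr2, a receptor for fibroblast growth factors, read 4727 and 2838 and was at -0.84 in B.

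Among Wnt feedback and target genes, 3 genes for secreted proteins were 2-fold lower in both forms. Wif1, which binds Wnt ligands, read 3303 and 1850 (A -2.33, B -1.57), and its Cy3 signal went from 76.3 to 215. Sfrp1, a secreted Frizzled-like inhibitor, read 1087 and 451 (A -1.51, B -1.17), and Dkk3 read 7327 and 3838 (A -1.08, B -1.02). These 3 of 21 feedback and target genes were lower in both forms and none was higher, against 0.501% and 3.66% of all genes. The list's median was -0.09 in both. Wif1 was at -2.54 in MEC, and Sfrp1 and Dkk3 at -0.68 and -0.63. In P5 all 3 were above 0, between 0.23 and 0.65. Axin2, a common readout of Wnt signalling, was at -0.65 in A and -0.42 in B.

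The 19 Wnt receptors had a median of -0.16 in A and -0.06 in B, with 14 below 0 in A. Fzd7 was the lowest of them, and Lgr4 the only one 2-fold apart. The stem cell receptor Lgr5 was at -0.16 and -0.04. Of 15 Wnt ligands and R-spondins, Wnt7b was 2-fold higher in both forms (1010 and 2321, A 1.03, B 1.12). In A alone 2 were 2-fold lower, among them Wnt5a, which read 160 and 92.1 (A -1.52, B -0.43). Wnt11 was at -0.53 in both. The list's median was -0.18 in A and -0.10 in B, with 10 members below 0 in A.

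Of 30 growth factor and Hedgehog genes Nrg1 was 2-fold lower and its receptor Erbb4 2-fold higher in both forms. Erbb4 read 12528 and 42162 (A 1.64, B 1.83) on a probe with 20 cytosines. Areg, an EGF receptor ligand, read 3581 and 1667 (A -0.98, B -1.12). Of 18 Notch pathway genes, 2 were 2-fold higher in both forms: Rfng, a glycosyltransferase acting on Notch (209 and 941, A 1.84), and the ligand Dll4 (309 and 1150, A 1.38). Both were also above 1 in P5, at 2.02 and 1.51.

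Luminal progenitor and milk genes leaned higher. The 15 measured progenitor genes had a median of 0.37 in A and 0.45 in B, with 11 above 0, against 53.4% of all genes. Elf5, a transcription factor of luminal progenitors and alveolar cells, read 329 and 1039 (A 1.70, B 1.32). Itgb3 was the other member 2-fold higher in both forms, with a second probe going the other way. Itga2, an integrin chain, was 2-fold lower in A alone, reading 188 and 105 (A -1.35, B -0.51). Kit, a receptor that marks these cells, was at 0.22 in A and 0.20 in B, and Aldh1a3 at 0.20 and 0.45. Of 8 measured milk and alveolar genes 7 were above 0 in A, with a median of 0.31. Their probes held a mean of 14.6 cytosines. The milk median was 0.18 after the centring on cytosines and 0.003 with median centring, and the progenitor median 0.33 and 0.20. Wap, a whey protein, read 385 and 1484 (A 1.79, B 1.52), and Lpo, lactoperoxidase, read 5137 and 17642 (A 1.31, B 1.48). After the centring on cytosines Wap was at 1.59 and Lpo at 0.99. Glycam1 was the WT-only gene given above. The beta-casein gene Csn2 was not well above background on both P4 arrays.

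The sort and stem cell surface genes held no member 2-fold apart in both forms on the probe used. Their 15 measured members had a median of -0.19 in A and -0.10 in B, with 11 below 0 in A. Itgb1, which encodes the sorted antigen CD29, was at -0.73 in A and -0.58 in B, with another measured probe at -1.23 and -0.97. Procr, a receptor reported on mammary stem cells, was at -0.66 and -0.55. Mme, which encodes the basal surface peptidase CD10, was at -1.03 and -0.90. Its other probe read 1308 and 599 and was past 2-fold lower in both forms, at -1.51 and -1.26. Of 13 hormone-sensing luminal genes Calca alone was 2-fold higher in both forms, reading 589 and 1570 on the WT and het arrays. Among 13 mesenchymal transcription factors Prrx1 was higher (A 1.26), with a second probe at 0.15.

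Chemokine genes were split. Of 27 measured, 3 were 2-fold higher and 3 2-fold lower in both forms, against 3.66% and 0.501% of all genes. The median was 0.18 in A. The lower ones were Cxcl3, Cxcl5 (1054 and 151, A -3.19, B -1.59) and Cxcl2 (1684 and 734, A -1.48, B -1.39), all ligands of the neutrophil receptor Cxcr2. The 3 were also below 0 in P5, at -1.65, -2.10 and -1.80, and in MEC, at -1.97, -0.81 and -0.70. Among 25 interferon response genes Ifi202b alone was 2-fold apart, reading 21252 and 6855 (A -1.61, B -1.53), and it was at -4.87 in P5.

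Markers of other cell types were read in the same way. Of 21 leukocyte markers 14 were above 0 in A, against 53.4% of all genes, with a median of 0.39. In both forms 3 were 2-fold higher, against 3.66% of all genes. The list's summed Cy5 signal was 29241 in WT P4 and 63561 in het P4. Cd74, the invariant chain of MHC class II, was the furthest above 0, reading 9494 and 32389 (A 1.82, B 1.86), and the other measured markers summed to 19669 and 31022. The MHC class II gene H2-Aa read 218 and 200 (A -0.29), Ptprc, which encodes CD45, read 192 and 271 (A 0.18), and the macrophage gene Lyz2 read 3444 and 3150 (A -0.19). The leukocyte probes held a mean of 15.6 cytosines, against 12.9 over all genes. Of 15 fibroblast markers none was 2-fold apart in both forms, the median was 0.35 in A, and the summed signal was 104491 in WT P4 and 127093 in het P4, against 1534181 in WT MEC. The collagens Col3a1 and Col1a1 were at 0.92 and 0.82, and Dcn, decorin, at -0.48. Of 14 adipocyte markers Cfd was lower (A -1.73, B -1.39), while Fabp4 read 60693 and 118302 (A 0.89, B 1.06). Of 19 endothelial markers Robo4 was higher (A 1.18, B 1.18), and none of the 14 Schwann markers was 2-fold apart. The part of such cells in the other results was not tested.

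No gene of the stress and growth lists was 2-fold apart in both forms. Of 21 immediate-early and heat shock genes 14 were below 0 in A, against 46.6% of all genes, with a median of -0.35 in A and -0.28 in B. Fosl1 was at -0.96, Fos at -0.64 and Hspa1a at -0.29 in A, and none was 2-fold apart. These genes respond to cell dissociation, and the labels do not tell the handling of the 2 samples apart. The 27 cell cycle genes, of which 1 (Ttk) was just past 2-fold lower in A alone, had a median of -0.04 in A and 0.17 in B, and the 26 ribosomal protein genes -0.06 and -0.01. The spread of the ribosomal genes, from -0.26 to 0.56 in A, shows the range that 26 bright genes of 1 function covered between these arrays.

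**Figure D5:**
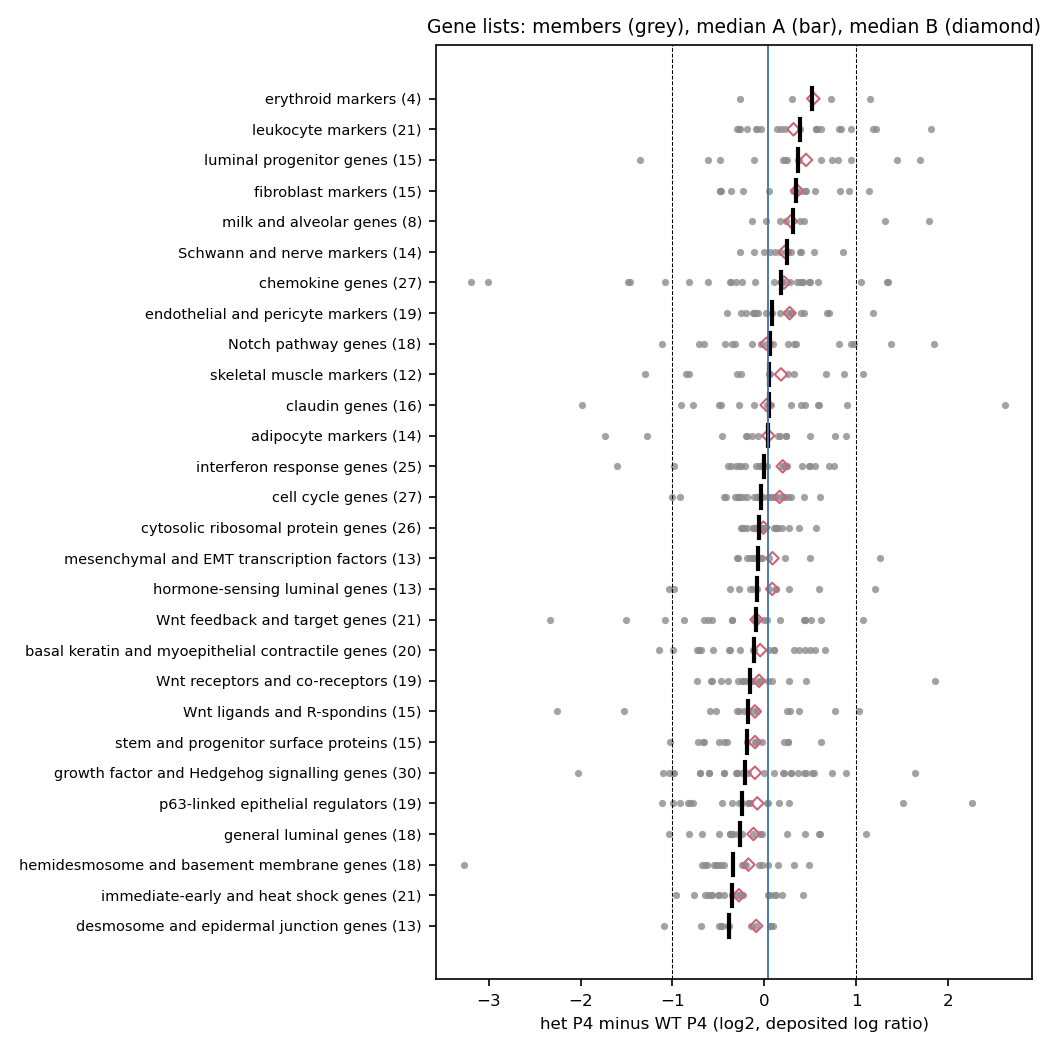
Difference het P4 minus WT P4 (log2, A) of the measured members of 28 gene lists, 1 point per gene, with the list's median in A (bar) and B (diamond), the number of members in parentheses, the median of all genes (blue line) and the 2-fold limits (dashed). Medians run from -0.38 for the desmosome list to 0.51 for the 4 erythroid genes, and most members lie within 2-fold.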

How the data were processed

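RNA of 6 mouse samples was measured on Agilent 2-colour arrays of 45018 spots, 1639 of them controls. Per the labels' protocols, sample RNA was labelled with Cy5-CTP and Universal Mouse Reference RNA with Cy3-CTP, with no dye swap. The direction is sample over reference. Per the file headers, the authors extracted the spots with Feature Extraction 9.5.3.1 and the probe positions are of build mm7. The deposited scanner files hold raw and processed signals as intensity, and a log10 ratio after the software's background and dye correction. The deposited series table holds log2 ratios of the same arrays.

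Value A is the deposited log10 ratio turned to log2. Value B used limma 3.58.1 in R 4.3.3: local backgrounds above 3 times the median of their array and channel were set to that median, followed by normexp with an offset of 50 and loess within each array. Control spots and spots marked as outliers (215 on the WT P4 array, 161 on the het P4 array) were left out, and copies of a probe averaged. Of 41174 probes, 22951 were named by RefSeq accession, 6659 by current symbol, 3109 by synonym and 8455 by the name on the array.

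A gene was read from its probe with the highest mean Cy5 signal over both P4 arrays, a rule that can favour a probe high on 1 of them. The arrays' number limits the precision. The background steps were checked on simulated arrays. Named genes were Trp63, Fzd7, the 12 highest and 12 lowest by the smaller of A and B, up to 4 members per list furthest from 0, and the 5 highest bounds on each side. Others, named for their probes or roles, were chosen after their values were seen. The comparison and the lists were chosen with earlier results of these data known. The second-probe comparison and the centring on cytosines were added after seeing the data. Alternatives were other background corrections, centring, filters, thresholds, channels and probes.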

Additional observations from a re-analysis of the deposited data

Results flagged for a closer look

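Of the named genes, 3 were at least 2-fold apart in P4 and at least 2-fold apart in the opposite direction in MEC, in A and in B. Aoc1 was at -5.38 in P4 and 1.40 in MEC. Ido1 was at -2.76 in P4 and 1.998 in MEC. Their Cy5 signals moved the same way, from 2737 to 23066 for Aoc1 and from 4576 to 57376 for Ido1 between WT and het MEC. Their Cy3 reference signals rose too, from 81.4 to 259 and from 270 to 849, so these MEC ratios carry a reference that was not constant. Calca, which encodes calcitonin and its related peptide, was at 1.20 in P4 and -4.34 in MEC, and at 4.86 in P5. With 1 array for each genotype in each population, the difference between populations was not tested.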

How the results depend on the processing

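Genes at least 2-fold apart in A numbered 1507, of which 1023 were higher and 484 lower. The lower genes were 111 in B, 18 with normexp and backgrounds as given, and 116 when backgrounds above 2 times the median were replaced. They were 138 with no background correction and 322 in Cy5 alone, where the higher genes were 1678. Plain subtraction gave 1128 higher and 355 lower, with bright backgrounds kept or replaced. Median centring gave 850, of which 327 were higher. With no filter on dim probes 3095 were apart (2025 and 1070), at 1.5-fold 4799 (2781 and 2018) and at 4-fold 154 (120 and 34). Trp63 was at 0.88 with normexp and backgrounds as given, -0.95 with median centring and -0.33 as the mean over its probes. Fzd7 was at -0.17, -1.20 and -0.45. With plain subtraction of backgrounds as given, Trp63 was at -0.55 and Fzd7 at -0.84. Genes 2-fold apart the same way in P4 and P5 were 550, and 205 with median centring. Of 1778 values of 127 named genes under the alternatives, 1735 kept their sign. With normexp and backgrounds as given, Bex2 was at 0.043, Cfd 0.21, Ucp1 0.23, Itga8 0.91 and Cxcl2 0.058. On the same scale Cldn8 was at 0.23, Myh2 0.63, Mme 0.27 and Wif1 0.25. As means over probes, Ccl19 was at -0.45 and Prrx1 at -0.13. Of 336 list medians 281 kept their sign. The centring on cytosines was chosen after seeing the data and gave 787 higher and 464 lower. The cause of these shifts was not tested. No paired analysis was possible because the groups share only 1 replicate number, and with 1 array a group no replicate could be left out.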
